A study of Mus musculus with 8 samples.

Results

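The 43 genes described here drive or restrain the cell division cycle: the proteins that license replication origins and travel with the replication fork, the enzymes that supply nucleotides, the cyclins and their kinases, the machinery of mitosis, and the inhibitors and pocket proteins that hold the cycle back. They were listed by name and role, with earlier results of these data known, and every one of them has a row in both count tables, that is 43 of 35976 rows for the brown line and 43 of 21828 for the white line. The RNA came from 2 mouse cell lines before and after induction of adipogenic differentiation. BAC are wild-type brown preadipocytes taken from the interscapular fat of newborn mice and immortalized with SV40 large T antigen delivered by a retrovirus, under hygromycin selection. 3T3-L1 is an established embryo fibroblast line that forms white-type fat cells. The libraries of BAC were made at days 0 and 4 and those of 3T3-L1 at days 0 and 6. Each of the 4 groups had 2 libraries. Elsewhere the study takes BAC at day 6 as mature, so the day 4 libraries come before that point. Day 0, the state before induction, fell 2 days after the cells had reached confluence, and in both lines induction medium with IBMX, indomethacin, dexamethasone, insulin and T3 was then given until day 2, followed by insulin and T3 alone. The later samples thus carry the induction that the day 0 samples do not. Line, day of sampling, large T antigen and count table differ together between BAC and 3T3-L1 and cannot be told apart. No source says that libraries of the same group are separate cultures, so p-values measure the spread between these libraries, which may be technical.

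In a dividing cell, cyclin D with Cdk4 or Cdk6 and then cyclin E with Cdk2 phosphorylate the retinoblastoma family of pocket proteins, which frees E2F factors to switch on the genes of DNA replication. The genes of G2 and mitosis come on later and are held back in resting cells by a complex of pocket proteins, E2F and MuvB proteins known as DREAM. SV40 large T antigen is known to bind pocket proteins and p53. 3T3-L1 cells are known to divide again after induction, a phase called mitotic clonal expansion, before they leave the cycle as fat cells. These libraries sample the start and a later day and not the days of expansion. In bulk RNA, fewer dividing cells and less RNA per dividing cell cannot be told apart.

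Library totals lay between 9045849 and 10160636 counts. Levels are given in CPM, the counts of a gene relative to the library total after scaling by edgeR's TMM factors, which assume that most genes keep their level. Changes are log2 fold changes of the later over the earlier day ± SE from edgeR's quasi-likelihood test, called at a Benjamini-Hochberg adjusted p of 0.05 over all genes of the line. Scaling by library size alone, the main alternative, shifted the median change of all genes by -0.26 in BAC and -0.29 in 3T3-L1, so small changes are read relative to that shift. The 6 general fat cell markers summed to 60.3 to 246 CPM at day 0 and 17806 to 20895 CPM later. The 6 preadipocyte markers were above 0 in every library and summed to 1155 and 1191 CPM at BAC day 0, 78.9 and 78.0 CPM at BAC day 4, 4496 and 4338 CPM at 3T3-L1 day 0 and 643 and 588 CPM at day 6. The 5 brown fat markers summed to 337 and 440 CPM at BAC day 4. Among markers of other cells, the 4 endothelial markers summed to 16.4 and 18.1 CPM at BAC day 0 and under 1 CPM at BAC day 4, and to 1.05 to 1.99 CPM in 3T3-L1. The 4 Schwann cell markers summed to 17.0 and 15.9 CPM at BAC day 0, 13.2 and 10.16 CPM at BAC day 4, 14.5 and 14.2 CPM at 3T3-L1 day 0 and 7.30 and 8.38 CPM at day 6. Of the 6 immune markers 1 or 2 were above 0 in each library, with sums of 4.42 and 4.70 CPM at BAC day 0, 7.65 and 6.04 CPM at BAC day 4 and 1.39 to 3.41 CPM in 3T3-L1, and the defining markers Ptprc, Adgre1 and Cd3e had no counts. The 4 muscle and the 4 epithelial markers summed to no more than 5.56 and 2.91 CPM in any library. The part of these shifts in the results that follow was not tested.

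Promoter sequences are shown first because E2F and CHR, a pair of known elements of cell cycle promoters, were found at different shares in the replication and the mitosis genes. RefSeq windows (build GRCm38.p6) that run from 250 bases before to 50 bases after a transcription start were found for 35 of the 43 genes, in 39 windows, with no entry for Mcm4, Ccna2, Ccnd1, Ccnd2, Ccne2, Cdc25c, Aurkb and Rb1. Both strands were searched for an E2F element spelled TTTCGCGC, TTTGGCGC, TTTCCCGC or TTTGCCGC, for the cell cycle genes homology region (CHR) spelled TTTGAA or TTTAAA, which DREAM is known to read, and for the CCAAT box. An E2F spelling stood in 6 of 9 replication genes (66.7%) and in 0 of 9 mitosis genes, against 2.26% of 32851 promoter windows of all genes. A CHR spelling stood in 8 of 9 mitosis genes (88.9%), in 3 of 3 genes of the G2/M list and in 2 of 9 replication genes (22.2%), against 27.6% of all windows, so that by itself this short spelling is common. The remaining classes were mixed. The nucleotide genes held an E2F spelling in 0 of 3 and a CHR spelling in 1 of 3 (Rrm2), although Rrm1 and Rrm2 rose in BAC and fell in 3T3-L1 as 5 replication genes did, and E2F and CHR spellings each stood in 2 of 4 genes of the G1/S list. In the inhibitor list 1 of 4 genes held an E2F and 2 of 4 a CHR spelling, 1 of 3 G2/M genes held an E2F spelling, and the 3 G1 genes with a window held neither. The CCAAT box did not part the classes, with 7 of 9 replication genes and 8 of 9 mitosis genes, against 37.4% of all windows. E2F and CHR matches could overlap a CCAAT box or each other, as in Mcm7, where TTTCGCGC runs into CCAAT. A match is a run of letters and not a known binding site.

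Whole windows are shown for 3 replication genes that differed between the lines, with every match to the 3 elements in capitals. Mcm6 holds 3 E2F spellings, at 110, 106 and 47 bases before the start (the first pair overlap), and Cdt1 holds 1, at 32 bases after it.
Mcm6 chr1:128359656-128359955 (- strand): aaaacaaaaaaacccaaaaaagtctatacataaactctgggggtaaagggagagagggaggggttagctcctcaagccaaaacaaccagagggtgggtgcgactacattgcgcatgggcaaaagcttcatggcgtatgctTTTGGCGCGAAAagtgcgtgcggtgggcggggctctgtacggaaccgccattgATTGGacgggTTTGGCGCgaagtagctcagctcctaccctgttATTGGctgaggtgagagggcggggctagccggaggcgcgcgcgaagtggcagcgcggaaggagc
Mcm5 chr8:75109259-75109558 (+ strand): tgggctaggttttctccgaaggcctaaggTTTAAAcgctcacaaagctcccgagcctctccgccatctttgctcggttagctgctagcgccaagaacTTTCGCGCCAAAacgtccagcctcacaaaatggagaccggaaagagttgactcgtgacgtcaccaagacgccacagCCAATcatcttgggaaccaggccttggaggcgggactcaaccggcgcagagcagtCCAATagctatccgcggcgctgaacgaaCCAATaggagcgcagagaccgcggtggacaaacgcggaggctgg
Cdt1 chr8:122567765-122568064 (+ strand): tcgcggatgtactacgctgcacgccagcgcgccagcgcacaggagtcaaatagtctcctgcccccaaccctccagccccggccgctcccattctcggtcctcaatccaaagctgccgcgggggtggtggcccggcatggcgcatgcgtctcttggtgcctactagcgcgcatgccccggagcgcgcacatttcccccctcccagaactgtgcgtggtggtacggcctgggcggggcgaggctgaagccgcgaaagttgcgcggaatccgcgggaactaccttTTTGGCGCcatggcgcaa
The same windows are shown for 2 mitosis genes that fell in both lines, where the capitals mark CHR spellings (TTTGAA or TTTAAA) and CCAAT boxes. In Cdc20 the CHR spelling lies 18 bases before the start, between 2 CCAAT boxes.
Cdc20 chr4:118437294-118437593 (- strand): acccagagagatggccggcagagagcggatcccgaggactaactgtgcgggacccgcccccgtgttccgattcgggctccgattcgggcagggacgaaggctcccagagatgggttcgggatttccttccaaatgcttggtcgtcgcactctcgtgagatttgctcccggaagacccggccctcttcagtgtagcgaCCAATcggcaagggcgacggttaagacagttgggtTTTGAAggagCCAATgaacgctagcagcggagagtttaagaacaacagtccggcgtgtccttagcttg
Plk1 chr7:122159185-122159484 (+ strand): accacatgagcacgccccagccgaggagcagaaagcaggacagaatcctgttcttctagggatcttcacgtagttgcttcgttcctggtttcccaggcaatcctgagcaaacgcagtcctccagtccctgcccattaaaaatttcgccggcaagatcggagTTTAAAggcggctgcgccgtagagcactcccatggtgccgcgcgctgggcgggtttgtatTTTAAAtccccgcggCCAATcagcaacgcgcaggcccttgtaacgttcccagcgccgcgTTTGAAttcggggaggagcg
Shorter stretches show an E2F spelling, in capitals, of each of the other replication genes that had one and of E2f2, with flanking bases in lower case. Mcm3 and Mcm7 each hold a further E2F match that is not shown.
Mcm3 chr1:20820263-20820284 (- strand): cttgggaagtTTTGGCGCcaag
Mcm7 chr5:138171850-138171877 (- strand): ggtgacgacgTTTCGCGCcaatttcggt
Cdc6 chr11:98908003-98908030 (+ strand): ccggtggagaGCGGGAAAtcgcctgggg
E2f2 chr4:136172303-136172323 (+ strand): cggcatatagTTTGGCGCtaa
The last set shows a CHR spelling, in capitals, of Ccnb2, Mki67 and Top2a and of Cdk1, which also had an E2F spelling 131 bases before its start. Each of these genes holds a further CHR match that is not shown, which in Top2a lies 23 bases before the start.
Ccnb2 chr9:70421535-70421560 (- strand): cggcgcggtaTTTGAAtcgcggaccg
Mki67 chr7:135716462-135716487 (- strand): gccgttttggTTTGAAtcgggcgggc
Top2a chr11:99024353-99024378 (- strand): attggtccatTTTGAAgattctcccg
Cdk1 chr10:69352912-69352937 (- strand): ccgcggcgagTTTGAAactgctggca
Cdk1 chr10:69353026-69353053 (- strand): ttccgctcccTTTCGCGCtctgcgctcc

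As a first view, replication and mitosis genes parted in BAC and fell together in 3T3-L1. The 10 replication genes summed to 2031 and 2066 CPM in the BAC day 0 libraries and to 2508 and 2422 CPM at day 4, but with scaling by library size alone the days overlapped, at 2230 and 2258 CPM before and 2278 and 2222 CPM after. In 3T3-L1 the same sum was 431 and 425 CPM before induction and 229 and 226 CPM by day 6. The sum of the 10 mitosis genes was 1473 and 1582 CPM before induction and 854 and 902 CPM by day 4 in BAC, and 268 and 261 CPM before induction and 143 CPM in both day 6 libraries in 3T3-L1. Within a library the scaling factor cancels from the ratio of the mitosis sum to the replication sum. This ratio was 0.726 and 0.766 in BAC at day 0 and 0.340 and 0.372 at day 4, so its day 4 mean was 0.478 times the day 0 mean. In 3T3-L1 it was 0.623 and 0.615 at day 0 and 0.623 and 0.634 at day 6, a ratio of means of 1.02. The sums are a description of the libraries and were not tested. The BAC and 3T3-L1 tables were scaled separately, so a level of one line beside that of the other is not a tested difference.

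**Figure D1:**
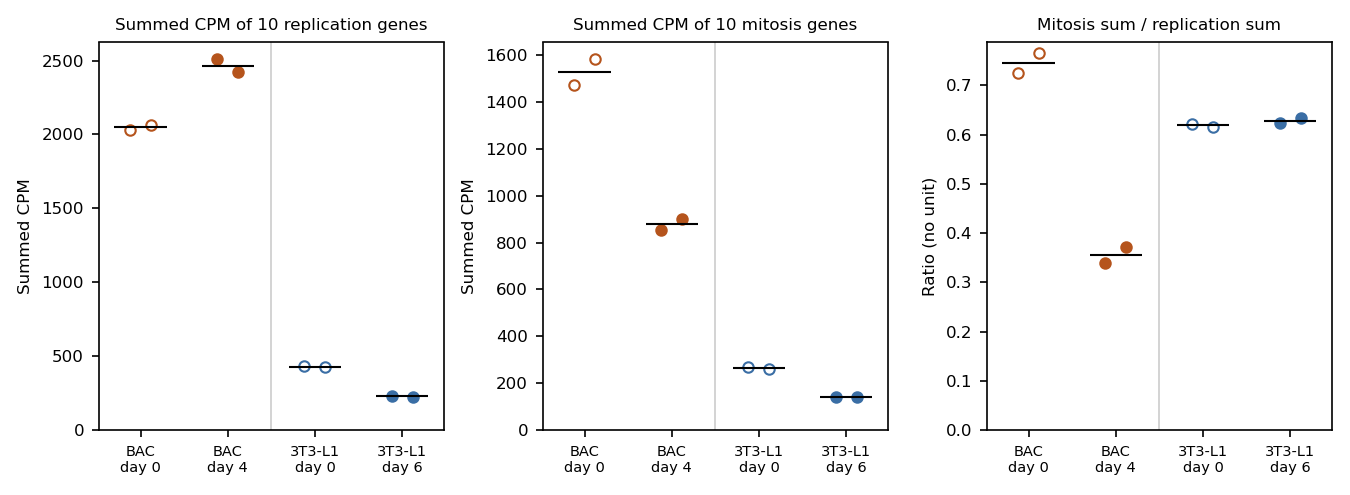
Summed level of the 10 replication genes and the 10 mitosis genes (CPM) and the ratio of the mitosis sum to the replication sum, for each library (points, open at day 0 and filled later; line, group mean of 2 libraries). The ratio is 0.726 and 0.766 at BAC day 0 and 0.340 and 0.372 at day 4, and stays between 0.615 and 0.634 in the 4 libraries of 3T3-L1.

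Over all 43 genes, 18 rose, 19 fell and 6 did not pass the test in BAC, where 39.1% of 14028 tested genes rose and 39.4% fell. In 3T3-L1, 8 rose, 30 fell and 4 did not pass, with E2f2 not tested for low counts, beside 39.8% of 11902 genes that rose and 39.6% that fell. The members' count of falls in 3T3-L1 was thus well above that share, and the BAC counts were near it. The same shares of all genes apply to the counts of the role lists that follow. With scaling by library size alone, the split was 11 rises and 23 falls in BAC and 7 rises and 34 falls in 3T3-L1. The median change of the members was -0.08 in BAC and -0.83 in 3T3-L1, against 0.01 and 0.00 for all genes tested. The 2 libraries of one day did not overlap those of the other day for 38 of 43 tested members in BAC and 39 of 42 in 3T3-L1, beside 88.9% and 89.2% of all genes tested, so this separation was about as common among the members as elsewhere. Among 42 members tested in both lines, 17 fell in both (40.5%, beside 28.0% of 11500 genes tested in both), 5 rose in both (27.1% of those genes did), 9 rose in BAC and fell in 3T3-L1 (4.77% did), and 2, Mcm10 and Ccnd2, did the reverse (5.85% did). Of the 9, 5 (Mcm2, Mcm3, Mcm5, Pcna and Rbl2) had no upward call in BAC with scaling by library size alone. The difference between the 2 lines' changes was tested on its own, and 21 members had a higher change in BAC and 4 a lower one, where 25.3% of 12863 genes had a higher and 33.7% a lower change. That split of 21 and 4 was the same with scaling by library size alone. The 21 include E2f2, which had too few counts in 3T3-L1 for a test of its change there.

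**Figure D2:**
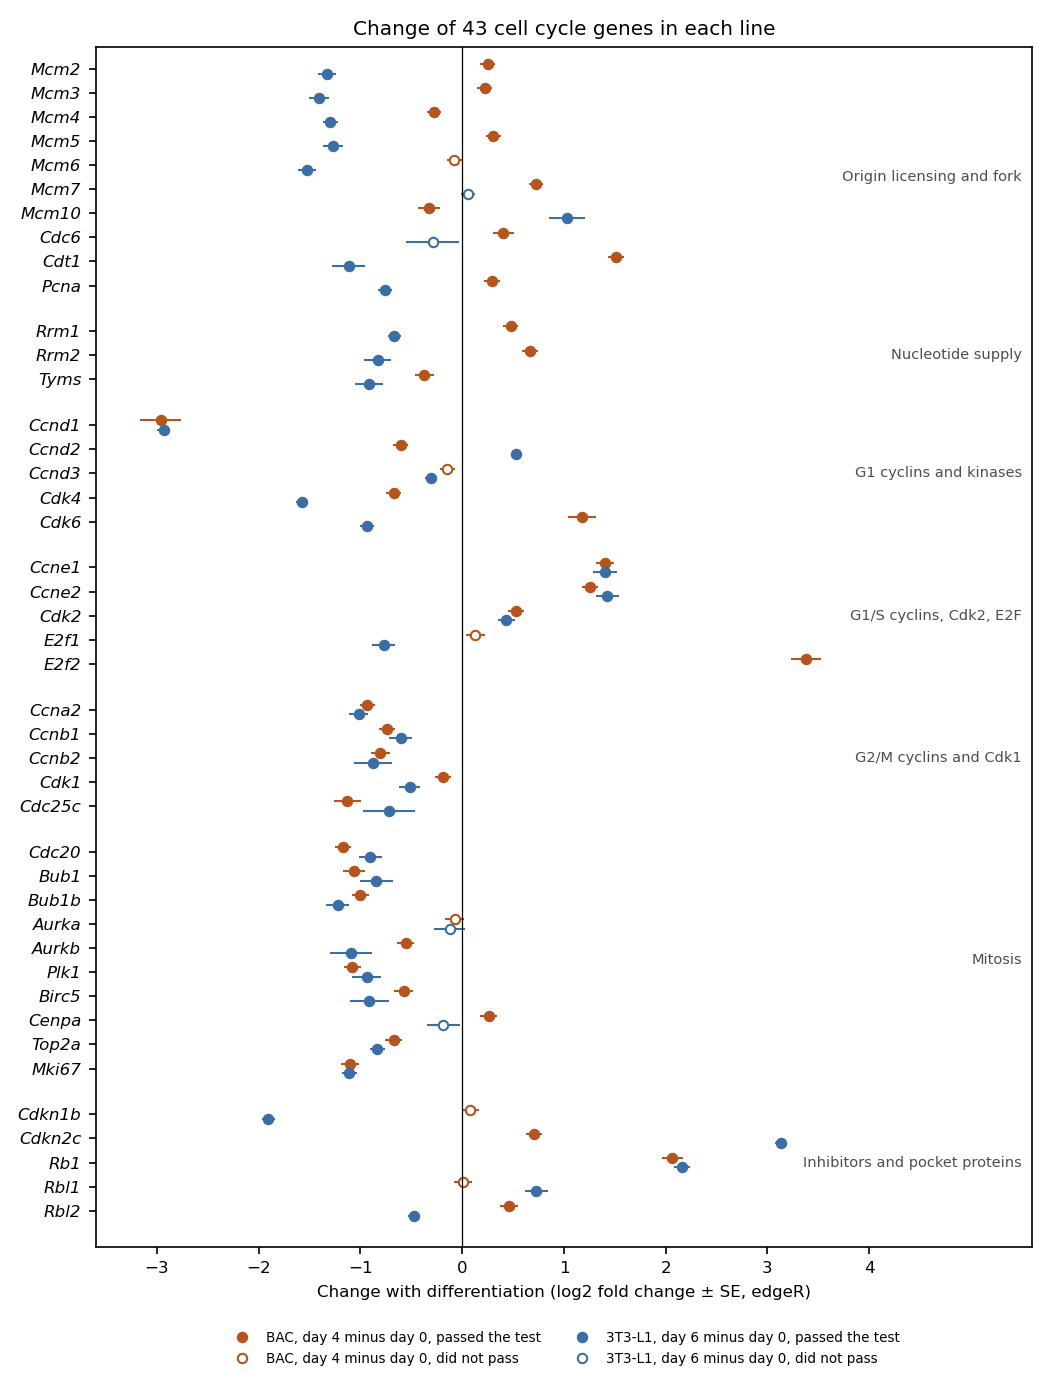
Change of each of the 43 genes with differentiation (log2 fold change ± SE) in BAC (day 4 minus day 0) and in 3T3-L1 (day 6 minus day 0), ordered by role; open points did not pass the test, and E2f2 was not tested in 3T3-L1. Replication genes of BAC lie on both sides of 0 up to 1.51 (Cdt1), those of 3T3-L1 run from -1.53 (Mcm6) to 1.03 (Mcm10), and 13 of the 15 G2/M and mitosis genes pass below 0 in both lines. With scaling by library size alone only Cdt1 and Mcm7 of the BAC replication genes pass above 0. Of 11500 genes tested in both lines, 28.0% fell in both.

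The replication genes set up and run DNA synthesis. Mcm2 to Mcm7 form the hexameric helicase that is loaded at origins by Cdc6 and Cdt1, Mcm10 helps to start it, and Pcna is the sliding clamp of the polymerases. In BAC, 7 of the 10 rose, 2 fell (Mcm4 and Mcm10) and Mcm6 did not pass, while with scaling by library size alone only Cdt1 and Mcm7 rose and 3 fell. In 3T3-L1, 7 fell, Mcm10 rose and 2 (Mcm7 and Cdc6) did not pass. All 10 differed between the lines, 9 with a higher change in BAC and Mcm10 with a lower one, and those counts were the same with scaling by library size alone.

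Cdt1, the loading factor that is active only before DNA synthesis, showed the widest gap of the list. In BAC its level was 90.4 and 82.4 CPM before induction and 252 and 240 CPM by day 4, and in 3T3-L1 it was 17.8 and 14.2 CPM before induction and 6.49 and 8.26 CPM by day 6. Both day 4 libraries of BAC stood far above day 0, and both day 6 libraries of 3T3-L1 stood below it. Its change was 1.51 ± 0.08 (edgeR adjusted p = 1.88e-10) in BAC and -1.12 ± 0.16 (edgeR adjusted p = 3.49e-06) in 3T3-L1, a difference of 2.60 ± 0.17 (edgeR adjusted p = 1.93e-12). Cdc6, its partner in loading, was 30.9 and 35.0 CPM before induction and 45.3 and 42.0 CPM by day 4 in BAC, a change of 0.40 ± 0.10 (edgeR adjusted p = 0.00213). In 3T3-L1 Cdc6 stood at only 4.26 and 3.41 CPM before induction and 2.66 and 3.61 CPM by day 6, the days overlapped, and the change of -0.29 ± 0.26 did not pass (edgeR adjusted p = 0.307). The difference for Cdc6, 0.67 ± 0.27 (edgeR adjusted p = 0.0394), was lost when 1 of 3 libraries was left out, with an edgeR adjusted p of 0.0655 without BAC day 4 replicate 1, 0.221 without 3T3-L1 day 0 replicate 2 and 0.235 without 3T3-L1 day 6 replicate 1. The rise of Cdc6 in BAC had an edgeR adjusted p of 0.0647 without BAC day 0 replicate 1 and 0.211 with scaling by library size alone, where the change in 3T3-L1 passed downward (0.0425). With DESeq2 and with no low-count filter the difference for Cdc6 was also lost (adjusted p = 0.0733 and 0.0791).

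The helicase subunits Mcm2 to Mcm6 fell in 3T3-L1 by similar amounts, with log2 changes from -1.53 (Mcm6) to -1.27 (Mcm5), and stayed within -0.28 (Mcm4) and 0.31 (Mcm5) in BAC. Mcm2 was 238 and 242 CPM before induction and 289 and 282 CPM by day 4 in BAC and 53.0 and 52.8 CPM before induction and 19.3 and 22.7 CPM by day 6 in 3T3-L1. Its change was 0.25 ± 0.07 (edgeR adjusted p = 0.00603) in BAC and -1.33 ± 0.09 (edgeR adjusted p = 2.92e-11) in 3T3-L1. Mcm6 was 409 and 436 CPM before induction and 411 and 390 CPM by day 4 in BAC, with overlapping days, and 56.8 and 62.2 CPM before induction and 21.7 and 19.7 CPM by day 6 in 3T3-L1, where no day 6 library came near day 0. The difference between the lines was 1.42 ± 0.12 (edgeR adjusted p = 1.45e-10) for Mcm6, 1.55 ± 0.11 (edgeR adjusted p = 1.22e-11) for Mcm2, 1.61 ± 0.12 (edgeR adjusted p = 1.36e-11) for Mcm3, 1.55 ± 0.12 (edgeR adjusted p = 2.76e-11) for Mcm5 and 0.99 ± 0.10 (edgeR adjusted p = 1.01e-08) for Mcm4. The rises of Mcm2, Mcm3 and Mcm5 in BAC were small and depended on the scaling and on single libraries. With scaling by library size alone their log2 changes were -0.015, -0.041 and 0.042, and Mcm6 passed downward in BAC (-0.34, edgeR adjusted p = 0.000773). Without BAC day 0 replicate 1 the edgeR adjusted p was 0.101 for Mcm2, 0.139 for Mcm3 and 0.0646 for Mcm5, and without BAC day 0 replicate 2 it was 0.0712 for Mcm2 and 0.106 for Mcm3.

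Mcm7 stood apart from the other subunits in both lines. In BAC it was 235 and 236 CPM before induction and 391 and 388 CPM by day 4, a rise of 0.72 ± 0.07 (edgeR adjusted p = 3.34e-07), against a mean log2 change of 0.08 for the other 5 subunits. In 3T3-L1 it was 54.5 and 51.7 CPM before induction and 54.6 and 56.1 CPM by day 6, with day 6 just above the day 0 libraries and a change of 0.06 ± 0.07 that did not pass (edgeR adjusted p = 0.448), while the other 5 averaged -1.37. With scaling by library size alone Mcm7 fell in 3T3-L1, by 0.23 on the log2 scale. Exons of Mcm7 share 321 bases with Ap4m1 and 64 with Cops6 on the opposite strand and hold the microRNA genes Mir25 and Mir93, and counting by strand is not stated. Pcna was 279 and 264 CPM before induction and 348 and 316 CPM by day 4 in BAC and 71.6 and 70.8 CPM before induction and 42.3 and 41.8 CPM by day 6 in 3T3-L1, with changes of 0.29 ± 0.08 (edgeR adjusted p = 0.00361) and -0.76 ± 0.07 (edgeR adjusted p = 3.62e-09). The Pcna rise in BAC had an edgeR adjusted p of 0.0938 without BAC day 0 replicate 2, and a log2 change of 0.026 with scaling by library size alone. Mcm10 was the only gene of its list with a lower change in BAC than in 3T3-L1. It was 30.5 and 32.0 CPM before induction and 24.7 and 25.0 CPM by day 4 in BAC and 6.15 and 5.03 CPM before induction and 12.4 and 10.5 CPM by day 6 in 3T3-L1, a change of -0.33 ± 0.11 (edgeR adjusted p = 0.0105, or 0.0736 without BAC day 0 replicate 2 and, from DESeq2, 0.0861) beside a rise of 1.03 ± 0.18 (edgeR adjusted p = 2.17e-05).

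The genes of nucleotide supply were Rrm1, Rrm2 and Tyms. Rrm1 and Rrm2 are the large and small subunits of ribonucleotide reductase, which makes deoxynucleotides, and Tyms makes thymidylate. Rrm1 was 225 and 228 CPM before induction and 316 and 314 CPM by day 4 in BAC and 111 and 111 CPM before induction and 68.0 and 71.8 CPM by day 6 in 3T3-L1, with changes of 0.48 ± 0.07 (edgeR adjusted p = 2.73e-05) and -0.67 ± 0.06 (edgeR adjusted p = 3.69e-09). Rrm2, whose protein is limiting outside S phase, was 76.0 and 72.6 CPM before induction and 115 and 121 CPM by day 4 in BAC and 22.9 and 19.1 CPM before induction and 11.5 and 12.1 CPM by day 6 in 3T3-L1, with changes of 0.67 ± 0.08 (edgeR adjusted p = 1.71e-06) and -0.83 ± 0.13 (edgeR adjusted p = 8.70e-06). In each line neither gene's days overlapped, and both kept their direction in BAC with scaling by library size alone. Tyms was 77.9 and 69.3 CPM before induction and 59.8 and 53.7 CPM by day 4 in BAC and 19.6 and 17.1 CPM before induction and 10.4 and 8.96 CPM by day 6 in 3T3-L1 and fell in both, with changes of -0.38 ± 0.09 and -0.92 ± 0.14. All 3 had a higher change in BAC, by 1.48 for Rrm2, 1.12 for Rrm1 and 0.52 for Tyms, where the edgeR adjusted p of Tyms was 0.0830 without 3T3-L1 day 0 replicate 2 and 0.105 without 3T3-L1 day 6 replicate 2.

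**Figure D3:**
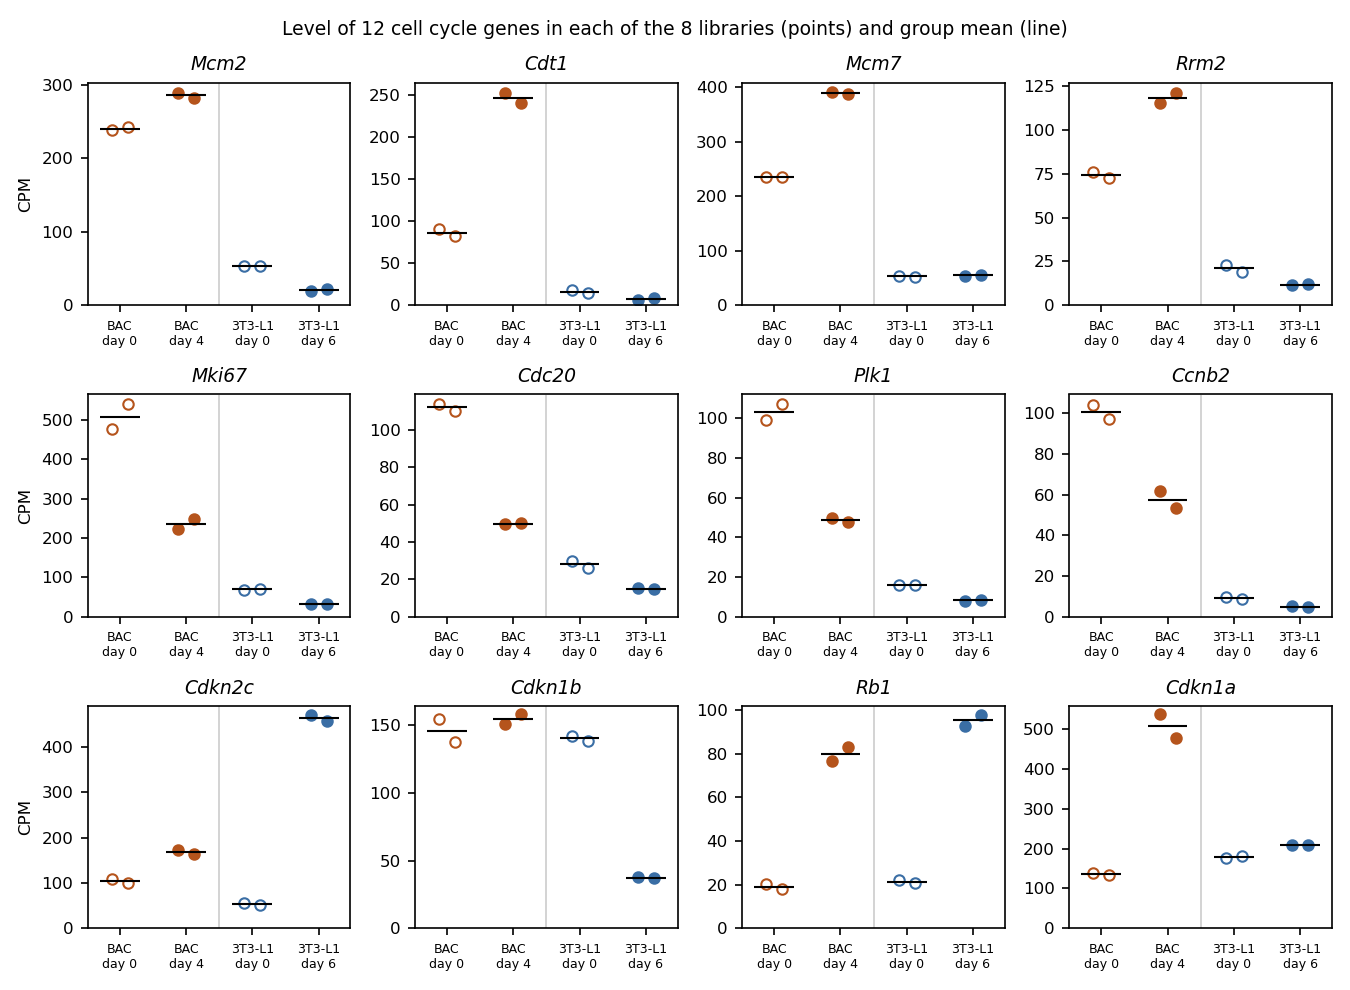
Level in CPM of 12 cell cycle genes in each library (points, open at day 0 and filled later; line, group mean of 2 libraries), with axes from 0 that differ between panels. Mcm2, Cdt1 and Rrm2 move in opposite directions in BAC and 3T3-L1, Mki67, Cdc20, Plk1 and Ccnb2 fall in both, Rb1 rises in both, and Cdkn1b falls in 3T3-L1 only while Cdkn2c reaches 458 and 470 CPM there. The rise of Mcm2 in BAC does not hold with scaling by library size alone, where its log2 change is -0.015.

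The D cyclins and their kinases, which carry growth signals into the cycle, fell in 3 of 5 cases in BAC and 4 of 5 in 3T3-L1. Ccnd1, the cyclin most tied to growth factor signals, was 21.6 and 23.6 CPM before induction and 2.15 and 3.63 CPM by day 4 in BAC and 265 and 271 CPM before induction and 36.7 and 33.3 CPM by day 6 in 3T3-L1. It fell further than any other member in both lines, with changes of -2.96 ± 0.20 (edgeR adjusted p = 3.82e-09) and -2.93 ± 0.06 (edgeR adjusted p = 3.27e-19). Ccnd2 was 236 and 233 CPM before induction and 156 and 152 CPM by day 4 in BAC and 463 and 457 CPM before induction and 671 and 659 CPM by day 6 in 3T3-L1, a change of -0.61 ± 0.07 beside a rise of 0.53 ± 0.05, and the lines differed by -1.16 ± 0.09 (edgeR adjusted p = 3.31e-11). Ccnd3, the D cyclin known to act in fat cell differentiation, was 160 and 161 CPM before induction and 152 and 139 CPM by day 4 in BAC, where its change of -0.15 ± 0.08 did not pass but -0.41 with scaling by library size alone did (edgeR adjusted p = 0.000178), and 141 and 135 CPM before induction and 110 and 113 CPM by day 6 in 3T3-L1, where it fell, with a change of -0.31 ± 0.06. Levels were also expressed per kilobase of exon, with the exon length annotated for each whole gene (8775 bases for Ccnd3). The length of the transcripts in these cells was not measured, so shares and ranks among different genes are only approximate. On this scale Ccnd1 made up 46.8% of the summed D cyclin level at 3T3-L1 day 0 and 8.19% at day 6, while Ccnd2 went from 40.3% to 77.8%. In BAC, Ccnd2 and Ccnd3 held 51.9% and 38.1% at day 0 and 48.8% and 49.4% at day 4, and Ccnd1 fell from 9.99% to 1.83%. Exons of Ccnd1 share 1100 bases, 23.4% of their length, with a gene on the opposite strand that GENCODE lists as LTO1.

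Cdk4, the main partner of the D cyclins, was 683 and 686 CPM before induction and 446 and 412 CPM by day 4 in BAC and 335 and 311 CPM before induction and 105 and 112 CPM by day 6 in 3T3-L1. It fell in both, with a change of -0.67 ± 0.08 in BAC and of -1.57 ± 0.06 in 3T3-L1, a difference of 0.87 ± 0.10 (edgeR adjusted p = 2.53e-08). Exons of Cdk4 share 641 bases, 19.7% of their length, with Tspan31 on the opposite strand. Its relative Cdk6 rose in BAC and fell in 3T3-L1. Cdk6 was 8.92 and 8.78 CPM before induction and 20.4 and 19.6 CPM by day 4 in BAC and 88.9 and 86.6 CPM before induction and 45.1 and 46.8 CPM by day 6 in 3T3-L1, with changes of 1.18 ± 0.14 (edgeR adjusted p = 2.20e-06) and -0.93 ± 0.07 (edgeR adjusted p = 7.78e-11). Per kilobase of exon, with the same limit on length, Cdk6 was at 0.30% and 1.07% of the pair's sum in BAC and 5.93% and 8.95% in 3T3-L1. Its CPM was also below that of Cdk4 in every library.

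Of the G1/S group, Ccne1, Ccne2 and Cdk2 rose in both lines. Ccne1 and Ccne2 encode the E cyclins that activate Cdk2 at the start of DNA synthesis. Ccne1 was 27.1 and 27.8 CPM before induction and 74.2 and 71.0 CPM by day 4 in BAC and 10.6 and 10.1 CPM before induction and 26.6 and 28.2 CPM by day 6 in 3T3-L1, rising by 1.403 ± 0.09 (edgeR adjusted p = 2.04e-09) and 1.41 ± 0.12 (edgeR adjusted p = 8.85e-10). Ccne2 was 46.7 and 45.9 CPM before induction and 110 and 111 CPM by day 4 in BAC and 11.2 and 11.3 CPM before induction and 31.3 and 29.0 CPM by day 6 in 3T3-L1, rising by 1.26 ± 0.08 (edgeR adjusted p = 1.86e-09) and 1.42 ± 0.11 (edgeR adjusted p = 4.22e-10). No later library of either line overlapped day 0 for these genes, and the lines differed by -0.03 ± 0.14 for Ccne1 and -0.19 ± 0.13 for Ccne2, neither past the test. Exons of Ccne2 share 609 bases, 17.4% of their length, with Ints8 on the opposite strand. Cdk2 was 129 and 128 CPM before induction and 191 and 180 CPM by day 4 in BAC and 34.1 and 30.7 CPM before induction and 43.6 and 44.0 CPM by day 6 in 3T3-L1, rising by 0.53 ± 0.07 and 0.43 ± 0.08, although with scaling by library size alone its change in 3T3-L1 did not pass (edgeR adjusted p = 0.117).

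Of the activator E2F genes, E2f1 differed between the lines and E2f2 could not be compared. E2f1 was 76.6 and 69.5 CPM before induction and 84.5 and 75.3 CPM by day 4 in BAC, with overlapping days and a change of 0.13 ± 0.09 that did not pass, and 30.2 and 27.7 CPM before induction and 18.3 and 15.6 CPM by day 6 in 3T3-L1, a change of -0.77 ± 0.11 (edgeR adjusted p = 2.54e-06). E2f2 had the largest rise of any member in BAC, from 3.96 and 4.61 CPM to 47.6 and 41.8 CPM, a change of 3.38 ± 0.15 (edgeR adjusted p = 1.82e-11). In 3T3-L1 its libraries held 2, 5, 6 and 7 counts, too few for the test. E2f2 passed the filter of the joint fit through its BAC counts, with a difference of 2.19 ± 0.76 (edgeR adjusted p = 0.0156), or 1.43 without 3T3-L1 day 0 replicate 3. The 3T3-L1 side of this value rests on those few counts, so it is not read as a difference between the lines.

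Genes of G2 and mitosis fell in both lines. All 5 members of the G2/M list passed the test downward in both, and 8 of the 10 mitosis genes did. Thus 13 of 15 fell in both lines, beside 28.0% of 11500 genes tested in both. With DESeq2 and with no low-count filter, 12 of the 15 fell in each line, but not the same 12. Cdk1 lost its call in BAC and Cdc25c lost its call in 3T3-L1. Ccna2 and Ccnb1 encode the cyclins of S to G2 and of mitosis, which both work with Cdk1. Ccna2 was 189 and 181 CPM before induction and 97.2 and 96.2 CPM by day 4 in BAC and 39.2 and 38.0 CPM before induction and 19.0 and 19.1 CPM by day 6 in 3T3-L1, with changes of -0.93 ± 0.08 (edgeR adjusted p = 2.64e-08) and -1.02 ± 0.09 (edgeR adjusted p = 4.57e-09). The changes of Ccnb1 were -0.74 ± 0.08 and -0.61 ± 0.11, and those of Ccnb2, the other mitotic cyclin, -0.80 ± 0.09 and -0.88 ± 0.18. Cdk1 moved less than its cyclins, at 142 and 137 CPM before induction and 128 and 116 CPM by day 4 in BAC and 29.7 and 30.1 CPM before induction and 22.4 and 19.4 CPM by day 6 in 3T3-L1. Its fall in BAC, -0.19 ± 0.08 (edgeR adjusted p = 0.0377), was lost without BAC day 0 replicate 1 (edgeR adjusted p = 0.156), without BAC day 0 replicate 2 (0.0847) and without BAC day 4 replicate 2 (0.189). In 3T3-L1 it fell, with a change of -0.52 ± 0.10 (edgeR adjusted p = 0.000119), and the difference of 0.30 ± 0.12 (edgeR adjusted p = 0.0416) was lost without any one of 4 libraries, the weakest being 0.262 without 3T3-L1 day 6 replicate 2. Both the BAC fall and the difference of Cdk1 were also lost with DESeq2 (adjusted p = 0.0733 and 0.0649) and with no low-count filter (edgeR adjusted p = 0.0735 and 0.0762). Cdc25c, the phosphatase that activates Cdk1 at mitotic entry, fell, with changes of -1.13 ± 0.13 in BAC and -0.72 ± 0.26 (edgeR adjusted p = 0.0156) in 3T3-L1, where it stood under 6 CPM and lost the call without 3T3-L1 day 0 replicate 2 (edgeR adjusted p = 0.119) or day 6 replicate 1 (0.231), with DESeq2 (0.164) and with no low-count filter (0.0906).

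Mki67, the proliferation marker Ki-67, was 477 and 540 CPM before induction and 224 and 249 CPM by day 4 in BAC and 68.6 and 71.3 CPM before induction and 32.5 and 32.3 CPM by day 6 in 3T3-L1. Its fall was nearly equal in size in the lines, -1.10 ± 0.09 (edgeR adjusted p = 1.99e-08) and -1.11 ± 0.07 (edgeR adjusted p = 2.48e-11), with a difference of -0.02 ± 0.12. Cdc20, which turns on the anaphase-promoting complex, was 114 and 110 CPM before induction and 49.5 and 49.9 CPM by day 4 in BAC and 30.0 and 26.1 CPM before induction and 15.2 and 14.8 CPM by day 6 in 3T3-L1, with changes of -1.17 ± 0.08 (edgeR adjusted p = 4.73e-09) and -0.90 ± 0.11 (edgeR adjusted p = 4.33e-07). Plk1, a kinase of mitotic entry and spindle assembly, was 99.1 and 107 CPM before induction and 49.7 and 47.8 CPM by day 4 in BAC and 15.8 and 16.0 CPM before induction and 7.99 and 8.61 CPM by day 6 in 3T3-L1, with changes of -1.08 ± 0.09 and -0.94 ± 0.14. For these 3 genes every later library lay below every day 0 library of its line. The checkpoint kinase genes Bub1 and Bub1b fell, with changes of -1.06 ± 0.11 and -1.003 ± 0.08 in BAC and -0.84 ± 0.16 and -1.23 ± 0.11 in 3T3-L1. Top2a, the topoisomerase that untangles sister chromosomes, was 367 and 382 CPM before induction and 217 and 253 CPM by day 4 in BAC and 64.2 and 65.0 CPM before induction and 36.6 and 35.7 CPM by day 6 in 3T3-L1, with changes of -0.67 ± 0.08 and -0.84 ± 0.07.

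The chromosomal passenger genes Aurkb and Birc5 fell in both lines. Aurkb, the kinase of that complex, was 65.0 and 68.2 CPM before induction and 45.1 and 45.5 CPM by day 4 in BAC and 10.7 and 7.87 CPM before induction and 4.40 and 4.31 CPM by day 6 in 3T3-L1, with changes of -0.56 ± 0.09 and -1.09 ± 0.21, and Birc5 (survivin), another subunit, fell, with changes of -0.58 ± 0.09 and -0.92 ± 0.19. The Birc5 call in 3T3-L1 was lost without day 6 replicate 1 (edgeR adjusted p = 0.0779) or day 6 replicate 2 (0.0936). Aurka, the centrosome kinase, did not pass in either line, at 60.9 and 57.5 CPM before induction and 59.4 and 53.0 CPM by day 4 in BAC and 12.6 and 10.4 CPM before induction and 10.7 and 10.5 CPM by day 6 in 3T3-L1, with overlapping days in both, but with scaling by library size alone it passed downward in both, at -0.34 (edgeR adjusted p = 0.00310) and -0.41 (edgeR adjusted p = 0.0135). Cenpa, the centromeric histone, was 59.5 and 64.1 CPM before induction and 75.2 and 73.0 CPM by day 4 in BAC, a change of 0.26 ± 0.08 (edgeR adjusted p = 0.0105) that was -0.0016 with scaling by library size alone and had an edgeR adjusted p of 0.181 without BAC day 0 replicate 1. In 3T3-L1 Cenpa was 13.0 and 9.77 CPM before induction and 9.38 and 10.6 CPM by day 6 and did not pass, though it passed downward with scaling by library size alone (-0.48, edgeR adjusted p = 0.00820). Only Aurkb and Cenpa among the mitosis genes differed between the lines, by 0.51 ± 0.22 (edgeR adjusted p = 0.0466) and 0.42 ± 0.18 (edgeR adjusted p = 0.0437), and each call was lost without some single libraries. Without 3T3-L1 day 0 replicate 2, the weakest case for both, the edgeR adjusted p was 0.365 for Aurkb and 0.432 for Cenpa. No mitosis gene differed between the lines with DESeq2 (adjusted p = 0.0845 for Aurkb and 0.0790 for Cenpa) or with no low-count filter (edgeR adjusted p = 0.0931 and 0.106).

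**Figure D4:**
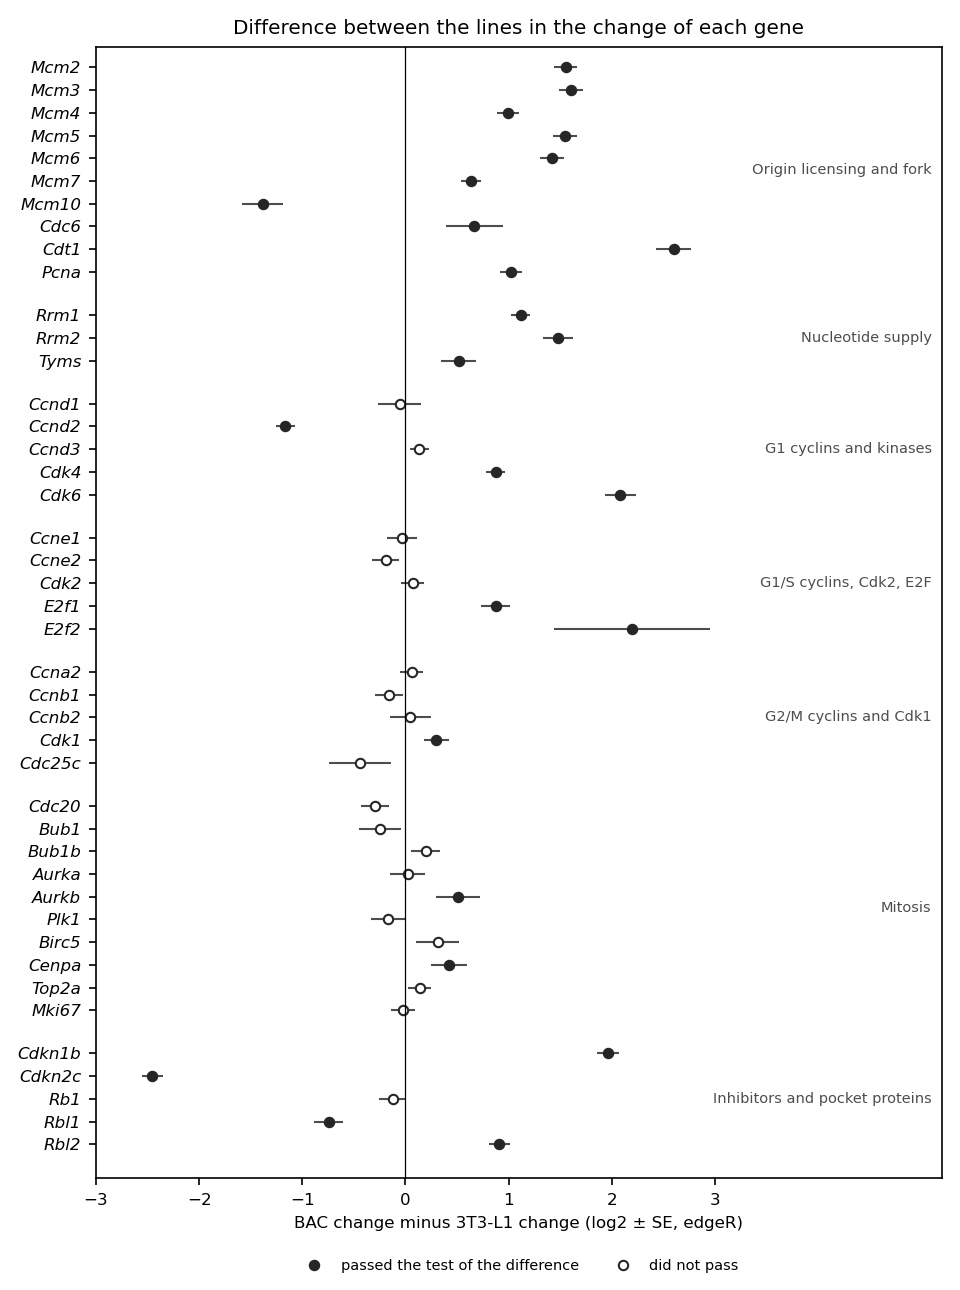
Difference between the lines in the change of each gene, BAC minus 3T3-L1 (log2 ± SE), ordered by role; filled points passed the test of the difference. Of the replication genes 9 lie above 0 and Mcm10 at -1.39, while 8 of 10 mitosis genes did not pass, and the inhibitors run from -2.45 (Cdkn2c) to 1.96 (Cdkn1b).

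Inhibitors and pocket proteins moved in a pattern of their own in each line. Cdkn2c encodes p18, an inhibitor of Cdk4 and Cdk6. Its level was 108 and 99.3 CPM before induction and 173 and 165 CPM by day 4 in BAC and 54.8 and 51.1 CPM before induction and 470 and 458 CPM by day 6 in 3T3-L1. It rose in both, by 0.70 ± 0.08 (edgeR adjusted p = 9.56e-07) and by 3.13 ± 0.06 (edgeR adjusted p = 2.53e-20), the largest rise of any member in 3T3-L1, and the lines differed by -2.45 ± 0.10 (edgeR adjusted p = 1.77e-16). Cdkn1b encodes p27, an inhibitor of cyclin E with Cdk2. It was 154 and 137 CPM before induction and 151 and 158 CPM by day 4 in BAC, with overlapping days and a change of 0.08 ± 0.08 that did not pass, and 142 and 138 CPM before induction and 37.6 and 37.1 CPM by day 6 in 3T3-L1, a change of -1.91 ± 0.07 (edgeR adjusted p = 3.99e-16). The difference for Cdkn1b was 1.96 ± 0.10 (edgeR adjusted p = 3.50e-14).

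Rb1, the retinoblastoma gene, rose in both lines. It was 20.3 and 17.8 CPM before induction and 76.8 and 82.9 CPM by day 4 in BAC and 22.0 and 20.6 CPM before induction and 92.7 and 97.9 CPM by day 6 in 3T3-L1, with changes of 2.07 ± 0.10 (edgeR adjusted p = 7.95e-11) and 2.16 ± 0.08 (edgeR adjusted p = 7.14e-16) and a difference of -0.12 ± 0.13 that did not pass. Rbl1 encodes p107, a pocket protein of cycling cells. It was 74.2 and 70.6 CPM before induction and 68.5 and 77.4 CPM by day 4 in BAC, with overlapping days and no call (-0.25 and an edgeR adjusted p of 0.0172 with scaling by library size alone), and 15.1 and 15.7 CPM before induction and 24.6 and 26.5 CPM by day 6 in 3T3-L1, a rise of 0.73 ± 0.11 (edgeR adjusted p = 4.81e-06). Rbl2 encodes p130, the pocket protein of resting cells. It was 55.8 and 56.4 CPM before induction and 73.1 and 81.0 CPM by day 4 in BAC and 115 and 118 CPM before induction and 82.6 and 84.9 CPM by day 6 in 3T3-L1, a rise of 0.46 ± 0.09 (edgeR adjusted p = 0.000201) beside a change of -0.48 ± 0.06 (edgeR adjusted p = 2.85e-07), although with scaling by library size alone the rise in BAC did not pass (edgeR adjusted p = 0.0522). Per kilobase of exon, with the limit on length given for the D cyclins, Rb1 went from 14.0% to 37.2% of the summed level of the 3 pocket genes in BAC. In 3T3-L1 it went from 16.4% to 50.8%. Rbl1 led in BAC at day 0 with 53.3% and Rbl2 led in 3T3-L1 at day 0 with 71.7%. Exons of Rb1 share 408 bases with Lpar6 and 488 with Rcbtb2 on the opposite strand, and those of Rbl2 share 693 with Aktip.

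The wider pathway was read from 8 further lists with 110 genes that are not members. Over all of them, 47 rose and 42 fell in BAC, where 39.1% of all genes tested rose and 39.4% fell, so these counts were near the general shares. In 3T3-L1, 27 rose and 51 fell, beside 39.8% and 39.6% of all genes. In the difference, 46 had a higher and 19 a lower change in BAC, beside 25.3% and 33.7% of all genes. That test took in all 110 genes, among them Cdkn1c, which was not tested in 3T3-L1 alone. Its value there is not read as a difference between the lines. The same shares apply to the counts of each list that follows. With scaling by library size alone the counts were 34 and 56 in BAC, 17 and 71 in 3T3-L1 and 50 and 18 in the difference, so the splits between rises and falls of single lists depend on the scaling. Of 16 further origin genes, 13 rose and 2 fell in BAC, and 7 rose and 4 fell in 3T3-L1 (4 and 7 with scaling by library size alone). The 11 calls in 3T3-L1 became 7 without 3T3-L1 day 6 replicate 1 and 6 with DESeq2. Cdc45, which completes the active helicase, was 45.1 and 52.1 CPM before induction and 164 and 127 CPM by day 4 in BAC and 10.3 and 7.97 CPM before induction and 20.6 and 17.7 CPM by day 6 in 3T3-L1, with changes of 1.58 ± 0.12 and 1.07 ± 0.15. Orc2, a subunit of the origin recognition complex, rose by 1.31 ± 0.09 and 0.92 ± 0.09, and Mcm8, a helicase of DNA repair, by 1.53 ± 0.11 in BAC. Dbf4, the activator of the Cdc7 kinase that fires origins, fell, with changes of -0.54 ± 0.10 and -1.29 ± 0.14. Gins3 fell, with changes of -0.40 ± 0.13 and -0.43 ± 0.14, and Orc1 fell in 3T3-L1, with a change of -0.74 ± 0.21. The Gins3 falls were lost without some single libraries, in BAC without day 0 replicate 2 (edgeR adjusted p = 0.114) or day 4 replicate 2 (0.0558) and in 3T3-L1 without day 0 replicate 2 (0.125), day 6 replicate 1 (0.0976) or day 6 replicate 2 (0.141).

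Of 23 fork genes, 11 rose and 3 fell in BAC, while 4 rose and 12 fell in 3T3-L1, and 16 had a higher change in BAC. With scaling by library size alone 6 rose and 9 fell in BAC and 2 rose and 18 fell in 3T3-L1, while 18 had a higher change in BAC. The 16 calls of the fork list in 3T3-L1 became 10 with DESeq2. Pold1, the catalytic subunit of DNA polymerase delta, was 88.9 and 87.6 CPM before induction and 109 and 102 CPM by day 4 in BAC and 16.9 and 17.0 CPM before induction and 4.40 and 5.93 CPM by day 6 in 3T3-L1, with changes of 0.26 ± 0.08 (edgeR adjusted p = 0.00748) and -1.71 ± 0.16 (edgeR adjusted p = 7.40e-09). The Pold1 rise in BAC had an edgeR adjusted p of 0.0786 without day 0 replicate 1 and 0.100 without day 0 replicate 2, and with scaling by library size alone its log2 change was -0.0074. Pole2, of polymerase epsilon, was 31.0 and 33.9 CPM before induction and 28.7 and 30.9 CPM by day 4 in BAC, not past the test, and 6.44 and 6.45 CPM before induction and 1.39 and 1.63 CPM by day 6 in 3T3-L1, a change of -2.08 ± 0.26. The clamp loader gene Rfc4 and the single-strand binding gene Rpa3 rose in both lines, by 1.38 ± 0.09 and 1.41 ± 0.10 in BAC and 0.43 ± 0.16 and 0.59 ± 0.11 in 3T3-L1, and Rfc1 rose by 0.48 ± 0.07 and 0.92 ± 0.06. Lig1, the ligase of lagging-strand synthesis, fell, with changes of -0.68 ± 0.08 and -1.28 ± 0.10. Timeless, of the fork protection complex, fell in BAC, with a change of -0.76 ± 0.08, and rose by 0.43 ± 0.14 in 3T3-L1. In 3T3-L1 the rises of Timeless and Rfc4 did not pass with scaling by library size alone (edgeR adjusted p = 0.359 and 0.391). The Timeless rise was also lost without day 0 replicate 2 (edgeR adjusted p = 0.0698) or day 6 replicate 2 (0.164), and that of Rfc4 without day 0 replicate 3 (0.0867) or day 6 replicate 2 (0.292). Of 8 further nucleotide genes, 6 rose and 1 fell in BAC, and 3 rose and 2 fell in 3T3-L1. Dut, which removes dUTP, rose by 0.35 ± 0.08 in BAC, which did not pass with scaling by library size alone (edgeR adjusted p = 0.343), and fell in 3T3-L1, with a change of -1.13 ± 0.13. Samhd1, which breaks down deoxynucleotides, was 201 and 234 CPM before induction and 69.1 and 68.9 CPM by day 4 in BAC and fell there, with a change of -1.66 ± 0.09, as it did in 3T3-L1, with -0.33 ± 0.06. Dtymk and Rrm2b rose in BAC by 1.15 ± 0.09 and 0.95 ± 0.13, and Dck, a kinase of deoxynucleoside salvage, rose in 3T3-L1 by 0.73 ± 0.12.

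Of 21 further spindle and kinetochore genes, 19 fell and 1 rose in BAC, and 17 fell and 1 rose in 3T3-L1. Kif23, a kinesin of the midbody, was 87.4 and 85.6 CPM before induction and 16.3 and 18.5 CPM by day 4 in BAC and 20.3 and 20.9 CPM before induction and 4.17 and 2.44 CPM by day 6 in 3T3-L1, with changes of -2.31 ± 0.10 (edgeR adjusted p = 2.07e-11) and -2.63 ± 0.18 (edgeR adjusted p = 4.64e-11). The kinetochore gene Ndc80 fell, with changes of -1.71 ± 0.14 and -1.80 ± 0.19, and Spc24, of the same complex, fell, with a change of -2.19 ± 0.38 in 3T3-L1 from 3.50 and 2.94 CPM. The genes that rose were Mad2l1, a checkpoint gene, in BAC at 0.57 ± 0.10 and Spc25 in 3T3-L1 at 0.59 ± 0.18. The Spc25 rise did not pass with scaling by library size alone (edgeR adjusted p = 0.107) or without day 0 replicate 3 (0.105), day 6 replicate 1 (0.191) or day 6 replicate 2 (0.0880). Of 13 genes of mitotic entry and exit, 8 fell and 4 rose in BAC, and 6 fell and 3 rose in 3T3-L1. Foxm1 and Mybl2, the transcription factors of the G2/M genes, fell, with changes of -1.46 ± 0.08 and -1.37 ± 0.13 in BAC and -1.38 ± 0.12 and -1.21 ± 0.18 in 3T3-L1. Pkmyt1, the kinase that inhibits Cdk1, was 46.9 and 46.2 CPM before induction and 102 and 88.3 CPM by day 4 in BAC and 12.3 and 10.3 CPM before induction and 64.6 and 56.8 CPM by day 6 in 3T3-L1, rising by 1.03 ± 0.09 and 2.42 ± 0.11. Pttg1 (securin) rose by 1.06 ± 0.10 in BAC and fell in 3T3-L1, with a change of -0.89 ± 0.25 that was lost without day 0 replicate 2 (edgeR adjusted p = 0.113), day 6 replicate 1 (0.170) or day 6 replicate 2 (0.133). Espl1 (separase) and Fbxo5, an inhibitor of the anaphase-promoting complex, fell in 3T3-L1, with changes of -1.49 ± 0.18 and -1.90 ± 0.25, while Cdc27, a subunit of that complex, rose there by 0.86 ± 0.07.

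Of 13 further E2F and DREAM genes, 5 rose and 3 fell in BAC (4 and 7 with scaling by library size alone), and 3 rose and 6 fell in 3T3-L1. The 9 calls in 3T3-L1 became 5 without day 6 replicate 1 and 5 without day 6 replicate 2. The MuvB genes Lin52 and Lin9 rose in both lines, by 1.49 ± 0.11 and 1.21 ± 0.10 in BAC and 1.19 ± 0.15 and 1.64 ± 0.16 in 3T3-L1. The repressors E2f7 and E2f8 fell in both, with changes of -0.73 ± 0.10 and -0.68 ± 0.11 in BAC and -1.46 ± 0.30 and -1.63 ± 0.33 in 3T3-L1, where the E2f7 call was lost without day 6 replicate 1 (edgeR adjusted p = 0.0601) or day 6 replicate 2 (0.111). Among 6 further inhibitors, 2 rose and 2 fell in each line, with Cdkn1c not tested in 3T3-L1. Cdkn1a, the p53 target p21, was 138 and 133 CPM before induction and 538 and 478 CPM by day 4 in BAC and 176 and 181 CPM before induction and 208 and 210 CPM by day 6 in 3T3-L1, a rise of 1.91 ± 0.08 (edgeR adjusted p = 2.16e-11) beside one of 0.23 ± 0.05 (edgeR adjusted p = 0.000439), which became a log2 change of -0.064 with scaling by library size alone (edgeR adjusted p = 0.261). Cdkn2b (p15) was 54.0 and 52.7 CPM before induction and 13.3 and 14.3 CPM by day 4 in BAC and 80.5 and 71.7 CPM before induction and 36.0 and 31.3 CPM by day 6 in 3T3-L1, with changes of -1.95 ± 0.11 and -1.18 ± 0.08. Cdkn2d (p19) rose by 0.57 ± 0.11 and 0.79 ± 0.12, and Cdkn2a, which encodes p16 and Arf, fell, with changes of -0.34 ± 0.11 and -0.58 ± 0.06, the first lost without BAC day 0 replicate 1 (edgeR adjusted p = 0.158) or day 4 replicate 2 (0.271).

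Of 10 further genes of G1 control, 5 rose and 4 fell in BAC, and 4 rose and 2 fell in 3T3-L1 (2 and 5, and 3 and 4, with scaling by library size alone). Myc, a driver of growth and cycle entry, was 41.2 and 43.1 CPM before induction and 138 and 127 CPM by day 4 in BAC and 10.0 and 11.0 CPM before induction and 37.4 and 36.5 CPM by day 6 in 3T3-L1, rising by 1.65 ± 0.08 (edgeR adjusted p = 1.36e-10) and 1.81 ± 0.11 (edgeR adjusted p = 4.60e-12). Skp2, the ubiquitin ligase subunit that marks p27 for breakdown, was 48.9 and 42.8 CPM before induction and 16.9 and 19.2 CPM by day 4 in BAC and 17.2 and 17.4 CPM before induction and 7.30 and 6.52 CPM by day 6 in 3T3-L1, with changes of -1.35 ± 0.12 and -1.33 ± 0.14. Ccng2, a cyclin tied to cell cycle arrest, was 84.5 and 88.8 CPM before induction and 195 and 193 CPM by day 6 in 3T3-L1 and rose there by 1.16 ± 0.06. Ccnh, the cyclin of the Cdk-activating kinase, rose in BAC by 0.55 ± 0.10, Cdk2ap1, a Cdk2-associated protein, fell in BAC, with a change of -0.87 ± 0.09, and Cks2 fell in 3T3-L1, with a change of -0.57 ± 0.16 (edgeR adjusted p = 0.0665 without day 6 replicate 1).

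**Figure D5:**
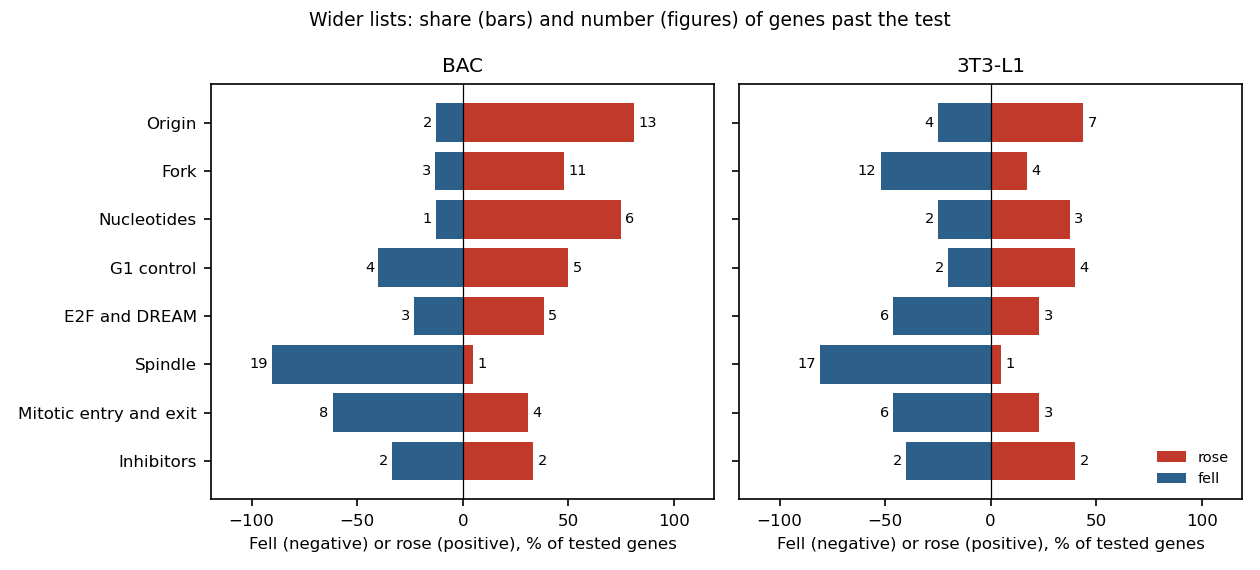
Share of the tested genes of each of 8 wider lists that rose (bars to the right) or fell (bars to the left) in BAC and in 3T3-L1, in percent, with the number of genes beside each bar. Of all genes tested, 39.1% rose and 39.4% fell in BAC, and 39.8% rose and 39.6% fell in 3T3-L1. The spindle list falls in both lines (19 genes in BAC and 17 in 3T3-L1), and the fork list has 11 rises in BAC and 12 falls in 3T3-L1; with scaling by library size alone it has 6 rises and 9 falls in BAC.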

How the data were processed

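PolyA RNA of 8 libraries was sequenced on DNA nanoball arrays, and the authors deposited 1 table of raw read counts per gene for each line. The sources name different tools for these counts: STAR and HTSeq in the study's methods, and Bowtie2, RSEM 1.3.1 and DESeq2 1.4.5 with build mm10 in the submitters' processing notes. The sources used here do not state the strand setting of the counting. No value of these tables was rounded or rescaled.

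Genes whose names a spreadsheet had turned into dates (27 rows of the BAC table, under 0.32% of counts) were left out. Each line was fitted alone with edgeR 4.0.16 (R 4.3.3): TMM factors, filterByExpr with a minimum count of 10, the quasi-likelihood F test (two-sided), and Benjamini-Hochberg adjustment over all genes tested. The contrast of the 2 changes was fitted over all 8 libraries on 21828 shared genes. Levels were not tested between lines. The main fits hold no replicate block. The procedure was also run on simulated data, but no result of that run is given here, so it is no measure of error rates in these libraries. Alternatives were library size alone, upper-quartile factors, DESeq2 1.42.0, no filter, the replicate number as a block in BAC, and each library left out.

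The members and lists were chosen with earlier results of these data known. All 43 members are named, and from each of the 8 wider lists and each line the 2 strongest rises and the 2 strongest falls that passed, among genes whose mean log2 CPM was 0 or more. A gene that this rule takes is not reported here. Positions and exon lengths came from GENCODE vM21 (GRCm38) and promoter windows from RefSeq. Exons of 15 members overlap another gene's, 14 of them on the opposite strand, so reads there cannot be assigned without strand.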

Additional observations from a re-analysis of the deposited data

Results flagged for a closer look

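The change with differentiation differed between BAC and 3T3-L1 by edgeR's test of the difference itself for 25 of the 43 genes, where 25.3% of all genes tested had a higher and 33.7% a lower change in BAC. Values are the BAC log2 change minus that of 3T3-L1. Among replication genes the difference was 2.60 for Cdt1, 1.61 for Mcm3, 1.55 for Mcm2, 1.55 for Mcm5, 1.42 for Mcm6, 1.02 for Pcna, 0.99 for Mcm4, 0.67 for Cdc6, 0.64 for Mcm7 and -1.39 for Mcm10. It was 1.48 for Rrm2, 1.12 for Rrm1 and 0.52 for Tyms among nucleotide genes. In the G1 and G1/S groups it was 2.08 for Cdk6, 0.87 for E2f1, 0.87 for Cdk4 and -1.16 for Ccnd2. E2f2, at 2.19, is counted among the 25 but had only 2 to 7 counts per library in 3T3-L1. These were too few for a test there, so its value is not read as a difference between the lines. The G2/M and mitosis groups held the smallest differences, 0.51 for Aurkb, 0.42 for Cenpa and 0.30 for Cdk1. Among inhibitors and pocket proteins the difference was 1.96 for Cdkn1b, 0.91 for Rbl2, -0.75 for Rbl1 and -2.45 for Cdkn2c. The day of sampling and the count table differ between the lines, so line, day and table cannot be told apart.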

How the results depend on the processing

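The members called numbered 31 to 38 of 43 in BAC, 36 to 41 in 3T3-L1 and 21 to 27 in the difference over all alternatives run. The replicate block, possible only in BAC because the 3T3-L1 groups share 1 replicate number, called 37 members and 11099 genes against 11014 without it, and changed no member's call. The deviations of BAC libraries with the same replicate number had a correlation of 0.0097. This gave no sign of pairing but cannot exclude it with 2 libraries a group. Scaling by library size alone moved the splits to 4298 rises and 6795 falls of all genes in BAC and 3424 and 6306 in 3T3-L1, from 5488 and 5526 and from 4736 and 4717. With it the BAC log2 changes became -0.015 for Mcm2, -0.041 for Mcm3, -0.13 for E2f1, -0.0016 for Cenpa, -0.18 for Cdkn1b and -0.25 for Rbl1, and that of Mcm7 in 3T3-L1 -0.23, or -0.10 with upper-quartile factors. Among genes outside the members it turned Pold1 (-0.0074) and Ccng2 (-0.0022) in BAC and Cdkn1a (-0.064) in 3T3-L1. Rbl1 in BAC was -0.031 with upper-quartile factors, -0.019 with DESeq2 and -0.014 with no low-count filter. The difference between lines, near 0 throughout, turned for Ccne1 (0.025 with library size, 0.085 with upper-quartile factors, 0.035 with DESeq2), Mki67 (0.034, 0.094 and 0.044) and Ccnd1 (0.059 with upper-quartile factors and 0.0031 with DESeq2). Leaving out 1 library at a time turned only changes that had not passed: in BAC -0.020 to 0.14 for Cdkn1b, -0.071 to 0.094 for Rbl1 and -0.16 to 0.012 for Aurka; in 3T3-L1 -0.26 to 0.022 for Aurka and -0.38 to 0.036 for Cenpa; and in the difference -0.48 to 0.27 for Ccnd1, -0.077 to 0.13 for Ccne1, -0.099 to 0.22 for Mki67, -0.18 to 0.12 for Rb1, -0.37 to 0.020 for Bub1, -0.23 to 0.035 for Plk1, -0.059 to 0.24 for Ccnb2, -0.13 to 0.21 for Aurka, -0.015 to 0.22 for Cdk2 and -0.0014 to 0.56 for Birc5. Without BAC day 0 replicate 1 or 2 the median difference of all genes shifted by 0.14 and 0.15. Every one of the alternatives kept the call of 28 of the 37 members called in BAC, 35 of 38 in 3T3-L1 and 19 of 25 in the difference. With 2 libraries a group, members under about 5 CPM in 3T3-L1, such as E2f2, Cdc6 and Cdc25c, are the least certain.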
